A study of Mus musculus with 20 samples.

Results

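Small nucleolar RNAs, small Cajal body RNAs and spliceosomal small nuclear RNAs, with the transcripts that carry snoRNAs in their introns, made up 58 of the 14700 genes listed over the deposited tables. They were chosen by symbol alone: names starting with Snora, Snord, Scarna or Rnu and a number, names of the form Snhg and a number, and Gas5. Of the 58 there were 25 box C/D snoRNAs, 10 box H/ACA snoRNAs, 5 small Cajal body RNAs (scaRNAs), 6 spliceosomal snRNAs and 12 host transcripts. Each RNA carried a symbol of its own, and the annotation's gene type for the small RNAs was snoRNA, scaRNA or snRNA.

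The libraries came from primary cortical neurons of mouse embryos at day 15, grown for 7 days in Neurobasal medium with B27. They were then kept for 12 h in normoxia (N), in medium with 25 mM glucose and 0.2 mM sodium pyruvate, or deprived of oxygen and glucose (OGD), with 1% oxygen and medium to which no glucose was added. Such deprivation is a culture model of ischemia. Cultures were labelled wild type (WT) or knockout (KO) for ciRS-7, a circular RNA listed as Cdr1as, which gave the groups N_WT, OGD_WT, N_KO and OGD_KO with 5 libraries each. The strain label is C57BL/6N-Cdr1asem1Nikr for every library, WT included, so what the WT cultures carry at that locus rests on the genotype label and on the reads. The N and the OGD library of a number share a genotype label and a batch label, and batches were unevenly spread over WT and KO cultures.

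Box C/D snoRNAs guide the 2′-O-methylation of ribosomal RNA and box H/ACA snoRNAs guide its pseudouridylation, while a few of each kind are needed for cleavage of the ribosomal precursor. Small Cajal body RNAs guide the same modifications on spliceosomal RNAs. Most snoRNAs of mammals are cut out of introns, and many host transcripts, Gas5 and the Snhg genes among them, begin with a pyrimidine run and have spliced products that nonsense-mediated decay removes during translation.

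The RNAs that the results below turn on are shown first, as DNA letters of the GENCODE release 21 transcripts (GRCm38), 5′ to 3′. The 3 named U1 snRNA copies come first because their reads cannot be told apart easily. The capitals mark the stretch that pairs with the 5′ splice site and the site bound by Sm proteins.

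Rnu1a1, chr11:87422867-87423030, plus strand: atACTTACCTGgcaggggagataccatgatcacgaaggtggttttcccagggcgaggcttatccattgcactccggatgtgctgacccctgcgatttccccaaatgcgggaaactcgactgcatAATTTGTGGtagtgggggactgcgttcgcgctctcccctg
Rnu1b2, chr3:96374021-96374185, plus strand: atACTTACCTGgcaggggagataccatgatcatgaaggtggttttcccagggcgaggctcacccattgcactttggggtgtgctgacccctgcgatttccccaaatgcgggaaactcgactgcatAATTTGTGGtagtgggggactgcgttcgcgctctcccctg
Rnu1b6, chr3:96460024-96460189, minus strand: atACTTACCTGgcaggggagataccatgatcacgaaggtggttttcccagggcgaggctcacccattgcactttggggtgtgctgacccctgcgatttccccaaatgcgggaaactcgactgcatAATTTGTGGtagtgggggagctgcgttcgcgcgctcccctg

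Rnu1a1 and Rnu1b2 were identical at 95.8% of aligned bases, Rnu1a1 and Rnu1b6 at 95.2%, and Rnu1b2 and Rnu1b6 at 98.2%. Rnu11 and Rnu12, the U11 and U12 snRNAs of the minor spliceosome, follow with the Sm site in capitals. U11 reads the 5′ splice site of U12-type introns and U12 their branch site.

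Rnu11, chr4:132270080-132270213, minus strand: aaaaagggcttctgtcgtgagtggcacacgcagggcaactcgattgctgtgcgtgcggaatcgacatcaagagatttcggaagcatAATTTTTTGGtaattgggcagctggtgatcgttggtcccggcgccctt
Rnu12, chr15:83149644-83149794, plus strand: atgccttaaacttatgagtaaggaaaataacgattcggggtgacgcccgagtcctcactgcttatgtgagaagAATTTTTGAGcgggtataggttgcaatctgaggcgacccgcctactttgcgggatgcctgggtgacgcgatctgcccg

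Snora75 and Snora81 are shown because they had no read in normoxia. The capitals mark the H box, found by its pattern nearest the middle of the RNA, and the triplet at the ACA position, which reads ACA in Snora75 and ATA in Snora81.

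Snora75, chr1:86351169-86351301, minus strand: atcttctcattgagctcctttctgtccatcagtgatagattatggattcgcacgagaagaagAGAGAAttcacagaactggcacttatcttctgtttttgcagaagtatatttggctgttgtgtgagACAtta
Snora81, chr16:23110756-23110933, plus strand: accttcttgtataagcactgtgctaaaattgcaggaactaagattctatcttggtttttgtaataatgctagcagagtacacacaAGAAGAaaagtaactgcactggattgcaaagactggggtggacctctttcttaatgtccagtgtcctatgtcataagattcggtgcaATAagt

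Snord15a and Snord99 are box C/D RNAs that stood differently to their hosts, and the capitals mark the C box and the D box (CTGA).

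Snord15a, chr7:99482785-99482932, minus strand: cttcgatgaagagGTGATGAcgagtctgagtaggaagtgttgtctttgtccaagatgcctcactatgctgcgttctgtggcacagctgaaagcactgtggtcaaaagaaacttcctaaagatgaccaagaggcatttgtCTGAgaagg
Snord99, chr4:132310691-132310764, plus strand: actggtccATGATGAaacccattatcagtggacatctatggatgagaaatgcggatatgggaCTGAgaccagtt

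The depth of the libraries was 7071506 to 16658618 reads over the listed genes. Cdr1as, the targeted gene, had 700 to 1365 reads per N_WT library, 545 to 1912 per OGD_WT library, 5 to 16 per N_KO library and 2 to 14 per OGD_KO library, so the libraries matched their genotype labels. Levels are given as CPM, reads scaled to a common library size, on 1 scale for the 20 libraries, and changes as log2 fold changes fitted within a table. A member was called at a limma adjusted p under 0.05, adjusted over every gene of the table. Because nothing in the labels says that the libraries of a group came from separate animals, the p-values measure only the spread between these cultures. In such bulk RNA, fewer cells of a type and less RNA per cell cannot be told apart.

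The tables differ in which members they list: 36 members were in all 4 tables, 8 in 3, 9 in 2 and 5 in 1. A member listed only where OGD libraries are present may have passed the authors' filter through them, so counts of calls are given over the 36, and members outside them are described by their values, with no test of OGD against normoxia. In the table of OGD_WT and N_WT, 44.3% of 14235 genes were called, 21.6% higher and 22.8% lower under OGD, and the groups did not overlap for 26.9%. Of the 36 members, 21 were called higher and 1 lower, and the groups did not overlap for 18. Their median log2 fold change was 0.76, against -0.03 over all genes. In the table of OGD_KO and N_KO, 40.9% of 14375 genes were called, 21.0% higher and 19.9% lower, and the groups did not overlap for 25.8%. There 26 of the 36 were called higher and 1 lower, 20 did not overlap, and the median was 0.84 against 0.0 over all genes. The member called lower was Snhg11 in both genotypes.

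Both directions depend on how the libraries are scaled. With libraries scaled by their total reads, the median of all genes was -0.29 in WT and -0.27 in KO, and 22.1% and 22.0% of called genes were higher, in place of 48.6% and 51.3%. Under that scaling 20 of the 36 members were called higher and 2 lower in WT, and 22 higher and 3 lower in KO, in place of 21 and 1 and of 26 and 1. The call lost in WT was that of Scarna6, and those lost in KO were those of Snord35a, Snord55, Snord82 and Snord87. The median of the 36 was then 0.51 in WT and 0.57 in KO, in place of 0.76 and 0.84.

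**Figure D1:**
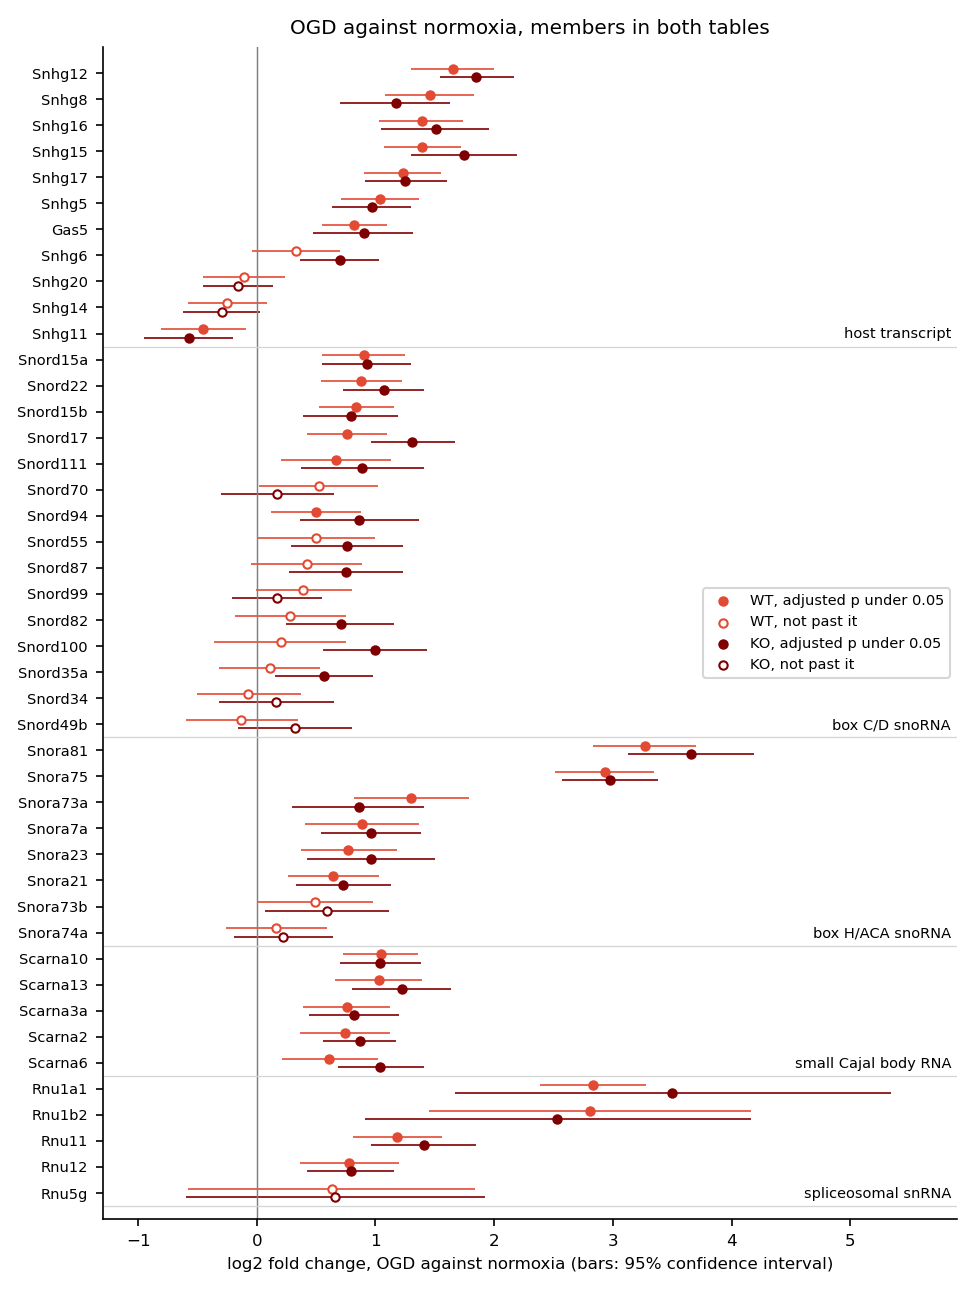
Log2 fold changes of OGD against normoxia (x axis) for the 44 members listed in both OGD tables, by class, in WT (light) and KO (dark). Points are limma estimates, bars 95% confidence intervals, and filled points are past an adjusted p of 0.05. The points of 28 members are filled right of 0 in both genotypes, 7 of them for members not listed in the table without OGD libraries, and those of Snhg11 are filled left of 0.

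Of the 36 members, 21 were called higher in both genotypes, where 17.6% of 13688 genes listed in all 4 tables were, and 1 lower in both, where 17.5% were. In KO and not in WT 5 were called, where 5.11% of genes were, in WT and not in KO 0, where 8.45% were, and in neither 9. The 5 called in KO and not in WT were Snhg6, Snord35a, Snord55, Snord82 and Snord87. Whether WT and KO differed was tested directly on the 36 members, as given further on.

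The host transcripts are spliced, mostly noncoding RNAs whose introns hold snoRNAs. Of the 11 in all 4 tables, 7 rose in WT and 8 in KO, with medians of 1.04 and 0.97, and 1 fell in each. The shares of all genes called higher were 21.6% in WT and 21.0% in KO. Those that rose in both were Snhg12, Snhg8, Snhg15, Snhg16, Snhg17, Snhg5 and Gas5. Snhg14 and Snhg20 did not pass the test in either genotype.

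Snhg12, whose annotated span holds Snora16a, Snora44, Snora61 and Snord99, was at 5.89, 5.21, 5.78, 5.86 and 4.03 CPM in the N_WT libraries and at 18.8, 19.1, 17.3, 12.6 and 22.2 in the OGD_WT libraries. The N_KO libraries were at 4.63, 4.33, 4.36, 4.23 and 4.72, and in OGD_KO at 15.2, 17.9, 17.4, 13.8 and 22.6. Every OGD library lay above every N library of its genotype. It rose by 1.65 on the log2 scale in WT (SE 0.17, limma adjusted p 1.46e-07) and by 1.85 in KO (SE 0.15, limma adjusted p 6.1e-08).

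Snhg15, which holds Snora9, was at 1.85, 1.54, 1.67, 1.77 and 1.69 in N_WT and 5.59, 5.17, 5.31, 4.71 and 5.19 in OGD_WT. In N_KO the values were 1.05, 1.03, 2.06, 0.846 and 2.11, and in OGD_KO 5.87, 6.93, 4.26, 6.1 and 4.76. The groups did not overlap in either genotype, and the N_KO libraries were more spread than the N_WT libraries. The fitted rise was 1.39 (SE 0.16, limma adjusted p 5.36e-07) in WT and 1.75 (SE 0.21, limma adjusted p 5.26e-06) in KO, from 8 to 34 reads per N_KO library.

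Snhg8, which holds Snora24, was at 1.92, 1.2, 1.27, 1.86 and 1.3 in N_WT and 3.83, 5.83, 5.49, 4.07 and 5.29 in OGD_WT, and at 2.27, 2.47, 1.57, 3.28 and 1.37 in N_KO and 5.05, 4.38, 6.02, 3.59 and 8.15 in OGD_KO. It rose by 1.46 in WT (SE 0.18, limma adjusted p 2.22e-06) and 1.17 in KO (SE 0.22, limma adjusted p 0.000407). Snhg16 rose by 1.39 (SE 0.17, limma adjusted p 2.13e-06) and 1.51 (SE 0.22, limma adjusted p 3.17e-05), and Snhg17 by 1.23 (SE 0.16, limma adjusted p 3.14e-06) and 1.25 (SE 0.17, limma adjusted p 1.21e-05). For these 3 hosts too, no OGD library overlapped the N libraries of its genotype.

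Snhg5, host of Snord50a and Snord50b, rose by 1.04 in WT (SE 0.16, limma adjusted p 2.62e-05) and 0.97 in KO (SE 0.16, limma adjusted p 0.000114). Gas5, named for its accumulation in growth-arrested cells, was at 58.3, 49.4, 53.2, 57.8 and 53.9 CPM in N_WT and 103, 104, 101, 101 and 81.6 in OGD_WT. Its N_KO values were 50.7, 52.7, 55.8, 87.7 and 35.1, and in OGD_KO at 95.7, 82.3, 95.9, 90.4 and 148. The WT groups did not overlap, while N_KO replicate 4, at 87.7, lay above OGD_KO replicate 2, at 82.3. The rise of Gas5 was 0.82 in WT (SE 0.13, limma adjusted p 4.75e-05) and 0.90 in KO (SE 0.20, limma adjusted p 0.00183). Gas5 overlaps Zbtb37 on the other strand, and its annotated span holds Snord47, Snord78 and Snord80.

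Snhg6, host of Snord87, was at 3.83, 4.48, 3.62, 2.6 and 5.07 in N_WT and 4.68, 4.98, 5.31, 6.24 and 3.99 in OGD_WT, and these groups overlapped. In N_KO it was at 5.07, 4.05, 4.36, 3.6 and 3.23, and in OGD_KO at 5.72, 6.3, 6.31, 7.54 and 8.15, without overlap. The log2 fold change was 0.33 in WT (limma adjusted p 0.138) and 0.70 in KO (limma adjusted p 0.00193). Snhg6 overlaps Mcmdc2 on the other strand, and the counting is not stated to use strand.

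Snhg11, a host transcript most abundant in neurons, was at 127, 139, 138, 144 and 119 in N_WT and 93.3, 81.5, 97.8, 161 and 76.6 in OGD_WT. The N_KO libraries were at 165, 124, 147, 187 and 153, and in OGD_KO at 108, 102, 106, 144 and 67.6. In WT, OGD replicate 4 lay above every N library and the other 4 below them. It fell by 0.45 in WT (limma adjusted p 0.0381) and by 0.57 in KO (limma adjusted p 0.0154). The WT call was lost in 8 of the 10 fits that leave out a library, with limma adjusted p up to 0.0941. Both calls were lost in the cultures of batches 3.1 to 3.3 (limma adjusted p 0.113 in WT and 0.212 in KO). Those batches hold only WT replicates 2 to 5 and KO replicates 2, 4 and 5, so fits to them rest on fewer libraries. Neuron markers, summed over 10 genes, were at 4850 to 6280 CPM in N_WT, 3070 to 5820 in OGD_WT, 5440 to 5640 in N_KO and 3270 to 4650 in OGD_KO, and 6 of the 10 were called lower in each genotype. The part of the markers in the fall of Snhg11 was not tested.

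Snhg14, the long transcript that carries the Snord115 and Snord116 clusters and runs antisense to Ube3a, had log2 fold changes of -0.25 in WT and -0.29 in KO (limma adjusted p 0.226 and 0.141). It was called lower when libraries were scaled by total reads, by -0.52 in WT (limma adjusted p 0.00787) and -0.58 in KO (limma adjusted p 0.00771). Snhg20 had log2 fold changes of -0.11 and -0.16 (limma adjusted p 0.627 and 0.396), and was called lower in KO under that scaling (-0.43, limma adjusted p 0.0169). Snhg3, host of Snora73a and Snora73b, was listed in the WT table and not in the table of OGD_KO and N_KO, with a log2 fold change of -0.21.

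**Figure D2:**
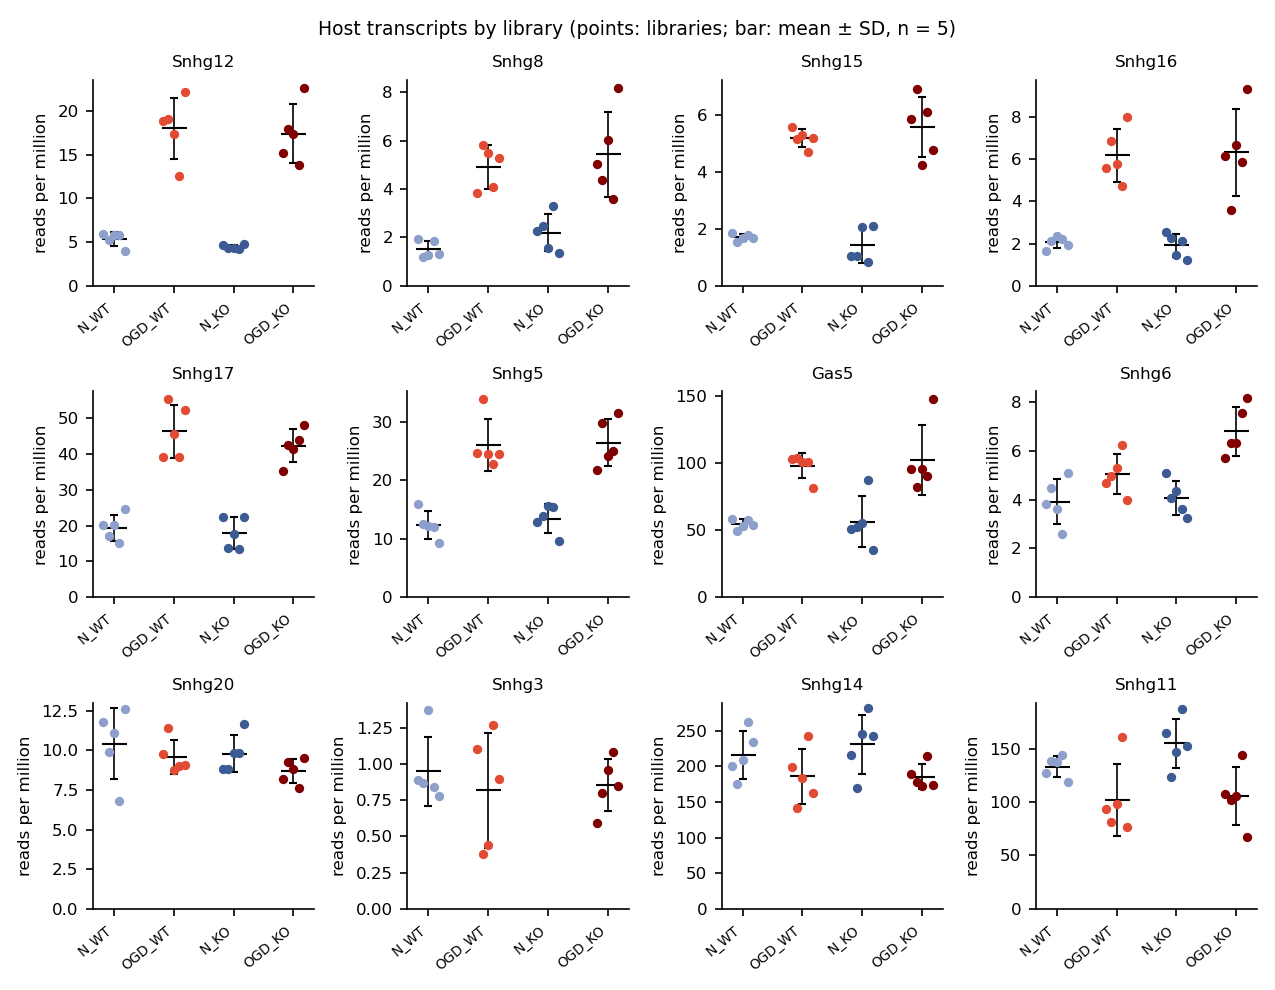
CPM (y axis, from 0) of the 12 host transcripts in each library of the groups where they are listed, which for Snhg3 leaves out N_KO. Points are libraries and bars mean ± SD (n = 5). OGD libraries of Snhg12, Snhg8, Snhg15, Snhg16, Snhg17 and Snhg5 lie above the N libraries of their genotype, and those of Snhg20, Snhg14 and, in WT, Snhg3 overlap them.

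Levels per kb of exon, which can be set beside each other, were led among host transcripts in N_WT by Snhg11, at 15.6 CPM per kb, and Gas5, at 14.5. Snhg14 was at 8.29, Snhg5 at 7.15, Snhg12 at 2.23 and Snhg15 at 1.25 on the same scale. In OGD_WT Gas5 was at 26.1, Snhg5 at 15.1, Snhg11 at 12.0 and Snhg12 at 7.50. Summed over the 11 hosts, the level was 461 ± 34.5 CPM (SD, n = 5) in N_WT and 507 ± 60.2 in OGD_WT, and 498 ± 75.5 in N_KO and 512 ± 33.2 in OGD_KO, and the abundant Snhg14 and Snhg11 were not among those that rose.

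The starts of the hosts that rose are shown because these transcripts moved together. RefSeq promoter windows (GRCm38.p6) were matched for 11 of the 12 hosts, with more than 1 start for Gas5 and Snhg17. The sequences below run from 50 bases before the start to 50 after its first base, and the capitals mark the longest run of C and T that lies between 10 bases before and 25 after the start.

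Snhg12, chr4:132308628-132308727, plus strand: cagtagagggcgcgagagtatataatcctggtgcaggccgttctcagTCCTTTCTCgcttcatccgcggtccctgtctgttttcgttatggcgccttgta
Snhg8, chr3:123508287-123508386, minus strand: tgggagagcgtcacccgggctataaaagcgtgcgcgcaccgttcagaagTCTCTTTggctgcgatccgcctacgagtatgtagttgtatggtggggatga
Snhg16, chr11:116671610-116671709, plus strand: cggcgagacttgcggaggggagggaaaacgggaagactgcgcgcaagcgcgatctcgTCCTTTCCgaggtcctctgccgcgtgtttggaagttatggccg
Snhg17, chr2:158361460-158361559, minus strand: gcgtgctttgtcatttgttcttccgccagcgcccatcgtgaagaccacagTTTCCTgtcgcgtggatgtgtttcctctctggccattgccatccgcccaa
Snhg5, chr9:88522848-88522947, minus strand: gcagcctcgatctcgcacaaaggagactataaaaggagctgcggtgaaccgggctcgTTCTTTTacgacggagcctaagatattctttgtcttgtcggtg
Gas5, chr1:161035116-161035215, plus strand: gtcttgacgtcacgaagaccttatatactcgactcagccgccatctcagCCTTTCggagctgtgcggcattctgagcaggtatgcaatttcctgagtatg
Snhg15, chr11:6528711-6528810, minus strand: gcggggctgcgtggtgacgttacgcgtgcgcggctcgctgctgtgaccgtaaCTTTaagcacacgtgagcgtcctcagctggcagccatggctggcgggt
Snhg11, chr2:158375663-158375762, plus strand: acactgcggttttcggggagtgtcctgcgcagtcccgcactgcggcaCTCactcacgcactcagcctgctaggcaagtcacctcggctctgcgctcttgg

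The run was 9 bases in Snhg12, 8 in Snhg16, 7 in Snhg8 and Snhg5 and 6 in Snhg17 and this start of Gas5. It was 4 in Snhg15 and 3 in Snhg11, which fell. The other start of Gas5 has a run of 3 and the other start of Snhg17 a run of 6. Counted by window, a run of at least 6 was in 7 of the 9 windows of the hosts that rose, in 0 of the 4 windows of Snhg3, Snhg11, Snhg14 and Snhg20, and in 32.1% of 32851 windows of all genes, whose median run was 5. Both windows of Snhg17 hold the same run. Counted by host, with the longest run of each, it was in 6 of the 7 hosts that rose and had a window. The minimum of 6 was chosen after the runs were seen. Over the whole windows of 300 bases, searched on both strands, the letters TGACGTCA were in those of Gas5 and Snhg15 and in 1.79% of all windows. The letters CACGTG were in that of Snhg15 and in 7.15% of all, and ACGTG, which CACGTG contains, in those of Snhg15 and Snhg5 and in 19.6% of all.

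The spliceosomal snRNAs held the largest rise of the members listed in all 4 tables, that of Rnu1a1. U1 pairs with the 5′ splice site of most introns and is transcribed from many near-identical copies, of which 3 carry a member symbol. Rnu1a1 was at 15.7, 34.1, 20.2, 33.5 and 38.2 CPM in N_WT and 203, 241, 246, 175 and 136 in OGD_WT. Its N_KO values were 37.4, 31, 42.9, 53.9 and 0, and in OGD_KO at 234, 178, 129, 116 and 354. The lowest OGD library was above the highest N library in both genotypes, and N_KO replicate 5 had no read. The log2 fold change was 2.83 in WT (SE 0.21, limma adjusted p 2.19e-09) and 3.50 in KO (SE 0.88, limma adjusted p 0.00375). Without N_KO replicate 5 the KO value was 2.20 (limma adjusted p 2.59e-06).

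Rnu1b2 was at 1.92, 0, 0.784, 0 and 0 in N_WT and 7.21, 0, 7.88, 12.3 and 9.68 in OGD_WT. It was at 0, 2.06, 0, 1.9 and 1.49 in N_KO and 10.1, 0, 15.3, 7.3 and 24.3 in OGD_KO, and the groups overlapped in both genotypes. Its fitted log2 fold change moved with the setting, from 2.81 to 4.20 in WT and from 2.53 to 3.33 in KO with a prior count of 0.5, and to 0.97 in KO in batches 3.1 to 3.3. Rnu1b6 was listed in the 2 tables with OGD_KO libraries, and had reads in 2 N_KO libraries and 4 OGD_KO libraries. Neither copy was listed in the table of N_KO and N_WT, so no test is read from them. Which U1 copy holds a read varied from library to library, and every 50-base word of the 3 copies occurs in another gene, so the copies were also summed.

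The sum of the 3 copies was 28.9 ± 9.03 CPM (SD, n = 5) in N_WT and 208 ± 42.0 in OGD_WT, and 34.8 ± 20.3 in N_KO and 223 ± 108 in OGD_KO. Rnu1b6 has no value listed for N_WT and was counted as 0 there. The OGD libraries were 7.40-fold higher in WT (log2 difference 2.89) and 9.43-fold higher in KO (3.24). Without N_KO replicate 5, which had 24 reads of the copies against 368 to 527 in the other N_KO libraries, the KO difference was 4.82-fold (2.27). No test is read from these sums, which include Rnu1b2 and Rnu1b6. Rnu1a1 alone had a two-sided exact permutation p of 0.00794 in each genotype, which is the minimum for groups of 5 and 5. Over the 17 listed genes, of 32 annotated, that share a 50-base word with these copies, the sum rose from 451 ± 232 to 2480 ± 596 in WT and from 367 ± 134 to 2750 ± 1510 in KO. These are 5.94-fold and 7.18-fold, and no test is read from them either, since Rnu1b2 and Rnu1b6 are among the 17.

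Rnu11 was at 4.31, 2.34, 3.04, 4.28 and 3.12 in N_WT and 8.51, 5.83, 8.94, 9.8 and 8.48 in OGD_WT. In N_KO it was at 1.92, 3.37, 2.54, 3.39 and 2.61, and in OGD_KO at 7.5, 8.53, 8.44, 4.55 and 12.1. The groups did not overlap, and Rnu11 rose by 1.18 in WT (SE 0.18, limma adjusted p 2.62e-05) and 1.41 in KO (SE 0.21, limma adjusted p 4.79e-05). It lies antisense to Gm28872, and 0% of its 50-base words occur in another gene.

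Rnu12 was at 0.958, 1, 0.98, 1.12 and 0.65 in N_WT and 1.88, 1.22, 2.04, 1.91 and 2.79 in OGD_WT, and at 1.22, 1.03, 1.21, 1.59 and 1.37 in N_KO and 2.75, 2.47, 2.64, 1.79 and 3.06 in OGD_KO. It rose by 0.78 and 0.79 (limma adjusted p 0.00354 and 0.00156), from 5 to 22 reads per N library, and the groups did not overlap. Unlike those of Rnu11, 53.9% of its 50-base words occur in other genes, so its reads may be shared. Rnu5g, a U5 copy, had log2 fold changes of 0.63 and 0.66 (limma adjusted p 0.398 in each) and 0 reads in 2 of the 5 libraries of each group. In batches 3.1 to 3.3 alone its KO value was 1.92, from 0, 2 and 26 reads in N_KO and 27, 32 and 14 in OGD_KO. These reads overlap, and the limma adjusted p of 4.94e-07 given there is not read as a rise. The KO call of Rnu12 was lost in those batches (0.70, limma adjusted p 0.124). Rnu11 and Rnu12 were chosen for these sentences after their values were seen.

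The 5 small Cajal body RNAs rose in both genotypes, with medians of 0.76 in WT and 1.04 in KO. All genes were called higher at shares of 21.6% and 21.0%. Scarna10, a composite guide with box C/D and box H/ACA parts that lies in an intron of Ncapd2, was at 270, 277, 243, 223 and 247 in N_WT and 480, 589, 563, 407 and 620 in OGD_WT. The N_KO libraries were at 274, 307, 264, 228 and 284, and in OGD_KO at 549, 411, 539, 610 and 684. It rose by 1.05 in WT (SE 0.15, limma adjusted p 1.36e-05) and 1.04 in KO (SE 0.16, limma adjusted p 7.42e-05), without overlap. Per kb it was the most abundant member, at 776 CPM per kb in N_WT and 1640 in OGD_WT, but 84.8% of its 50-base words are shared with a gene inside it or with retained-intron transcripts of Ncapd2.

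Scarna13, in an intron of Snhg10, rose by 1.03 and 1.22 (limma adjusted p 8.74e-05 and 0.000117). Scarna2, which lies in no gene of its strand, rose by 0.74 and 0.87 (limma adjusted p 0.00248 and 0.000133). Scarna3a rose by 0.76 and 0.82 (limma adjusted p 0.00147 and 0.00155), and Scarna6 by 0.61 and 1.04 (limma adjusted p 0.0145 and 0.000133). The WT call of Scarna6 was lost with scaling by total reads (0.36, limma adjusted p 0.128), in batches 3.1 to 3.3 (0.54, limma adjusted p 0.0533) and without N_WT replicate 1 (0.47, limma adjusted p 0.0579). Summed, the 5 were at 289 ± 19.6 CPM (SD, n = 5) in N_WT, 597 ± 83.5 in OGD_WT, 306 ± 28.0 in N_KO and 629 ± 108 in OGD_KO.

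**Figure D3:**
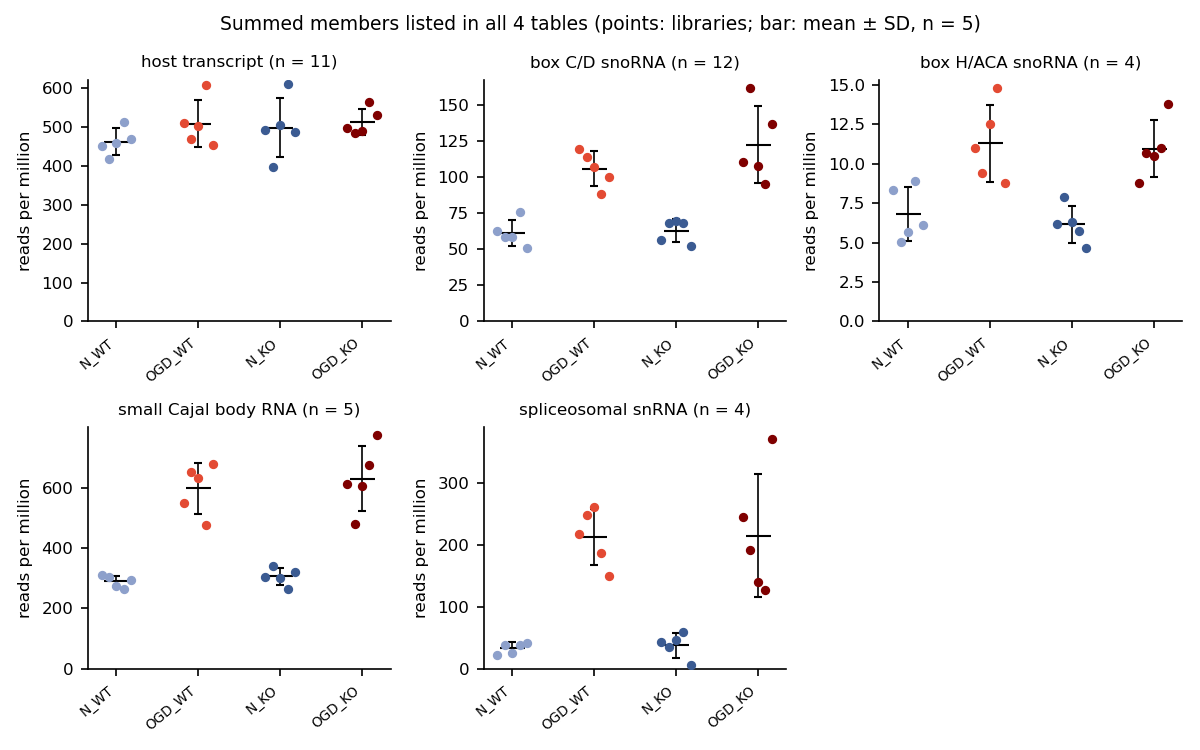
Summed CPM (y axis, from 0) of the members listed in all 4 tables, by class, in each library of the 4 groups. Points are libraries and bars mean ± SD (n = 5). The scaRNA sums are 263 to 341 in N libraries and 475 to 774 in OGD libraries, while the host sums of the groups overlap.

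Of the 12 box C/D snoRNAs in all 4 tables, 4 rose in WT and 8 in KO, and 0 fell in either. Among all genes 21.6% were called higher in WT and 21.0% in KO, so the WT count is not read as a result about the class. The medians were 0.46 and 0.73. The 4 that rose in both were Snord15a, Snord15b, Snord17 and Snord22. Snord22, the U22 RNA needed for maturation of 18S ribosomal RNA, was at 30.5, 32.1, 30.2, 37.3 and 21.3 in N_WT and 64, 63.9, 55.6, 42.6 and 56.1 in OGD_WT. Its N_KO values were 30.9, 34.5, 35.8, 32.6 and 27.1, and in OGD_KO at 59.9, 98.2, 60.0, 54.9 and 71.7. It rose by 0.88 in WT (SE 0.16, limma adjusted p 0.00017) and 1.07 in KO (SE 0.16, limma adjusted p 5.13e-05), without overlap, but it lies partly in an exon of Snhg1 and 100% of its 50-base words are shared with that host.

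Snord15b, a methylation guide for 28S ribosomal RNA in an intron of Rps3, rose by 0.84 in WT (limma adjusted p 0.000166) and 0.79 in KO (limma adjusted p 0.0028). A retained-intron transcript of Rps3 keeps that intron, and 100% of the 50-base words of Snord15b are shared with Rps3, which rose by 0.66 and 0.86. Snord15a, in another intron of the same gene and with 0% of words shared, rose by 0.90 and 0.93 (limma adjusted p 0.000183 and 0.000472). Snord17, in an intron of Snx5, also shares 0% of its words. It was at 1.64, 1.8, 2.06, 1.86 and 2.08 in N_WT and 3.44, 3.29, 3.28, 3.31 and 4.29 in OGD_WT, and at 2.01, 1.51, 1.57, 1.38 and 1.55 in N_KO and 4.38, 4.78, 4.62, 3.47 and 5.95 in OGD_KO. The groups did not overlap, and it rose by 0.76 (limma adjusted p 0.000819) and 1.31 (limma adjusted p 1.02e-05). Snord15a and Snord17 were picked after their values were seen, because their reads are not shared.

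Snord34, Snord49b, Snord70 and Snord99 passed the test in neither genotype. With the values as deposited, Snord70 (0.51, limma adjusted p 0.0183) and Snord99 (0.42, limma adjusted p 0.0288) were called in WT. Of the 4 called in KO alone, Snord55, Snord82 and Snord35a lost the call in batches 3.1 to 3.3 (limma adjusted p 0.163, 0.102 and 0.214). Snord50b, listed in the 2 tables with OGD_KO libraries, had 0 reads in 3 of 5 OGD_WT libraries and 3 of 5 N_KO libraries. It was at 0.743, 4.78, 1.03, 3.47 and 3.23 in OGD_KO. Summed, the 12 box C/D snoRNAs were at 61.3 ± 9.30 CPM (SD, n = 5) in N_WT, 106 ± 12.1 in OGD_WT, 63.1 ± 7.95 in N_KO and 123 ± 26.8 in OGD_KO.

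Of the 4 box H/ACA snoRNAs in all 4 tables, 2 rose in each genotype, with medians of 0.63 and 0.78. With 4 members, the count is too small to set against the shares of 21.6% and 21.0% of all genes called higher. The 2 were Snora23, which rose by 0.77 and 0.96 (limma adjusted p 0.00299 and 0.00588), and Snora7a, which rose by 0.89 and 0.96 (limma adjusted p 0.00362 and 0.000975). Snora7a lies over an exon of Rpl32 with 100% of its 50-base words shared with that gene, which rose by 0.88 and 0.92. Snora73b had log2 fold changes of 0.49 and 0.59 (limma adjusted p 0.0957 and 0.063). With the values as deposited it was called in both (limma adjusted p 0.0329 and 0.0231), and in batches 3.1 to 3.3 in WT (0.76, limma adjusted p 0.0171). Snora73a, a U17 RNA that takes part in cleavage of the ribosomal precursor, was listed in the 3 tables with OGD libraries. It was at 0.274, 0.668, 0.294, 0.93 and 1.04 in N_WT and 2.6, 1.88, 2.74, 1.78 and 1.6 in OGD_WT, without overlap, from 3 to 10 reads per N_WT library. The fitted differences were 1.30 in WT and 0.86 in KO, with no test read from them because the listing may rest on the OGD libraries.

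Snora75 and Snora81 had 0 reads in the 10 N libraries. Snora75 was at 3.05, 1.88, 2.83, 3.44 and 2.69 CPM in OGD_WT and 2.45, 2.71, 2.93, 2.63 and 4.59 in OGD_KO, from 153 and 156 reads in all. Snora81 was at 4.55, 3.19, 3.98, 2.16 and 4.49 in OGD_WT and 3.79, 6.7, 4.7, 2.75 and 9.85 in OGD_KO, from 211 and 280 reads. Against a floor of 3 counts over the 5 N libraries, Snora75 was at least 53.8-fold higher under OGD in WT and at least 57.7-fold in KO, and Snora81 at least 74.2-fold and 104-fold. The floor covers counting error alone. Both were listed only in the tables with OGD libraries, so no test is read from them.

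No read in any N library and a read in every OGD library was found for 3 of 14235 genes (0.0211%) in WT and 4 of 14375 (0.0278%) in KO, and 2 of these in each were Snora75 and Snora81. The opposite pattern was found for 0 genes in either table. Both RNAs lie in introns that an annotated retained-intron transcript keeps, Snora75 in Ncl and Snora81 in Eif4a2, and 100% of the 50-base words of both occur in other genes. Reads of the RNA and of such transcripts can therefore be assigned to either, and the part of this in the 0 counts was not tested. Ncl, the gene of nucleolin, rose by 0.64 in WT and 0.61 in KO (limma adjusted p 0.0126 and 0.0142), and Eif4a2 had log2 fold changes of 0.12 in each (limma adjusted p 0.538 and 0.574).

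**Figure D4:**
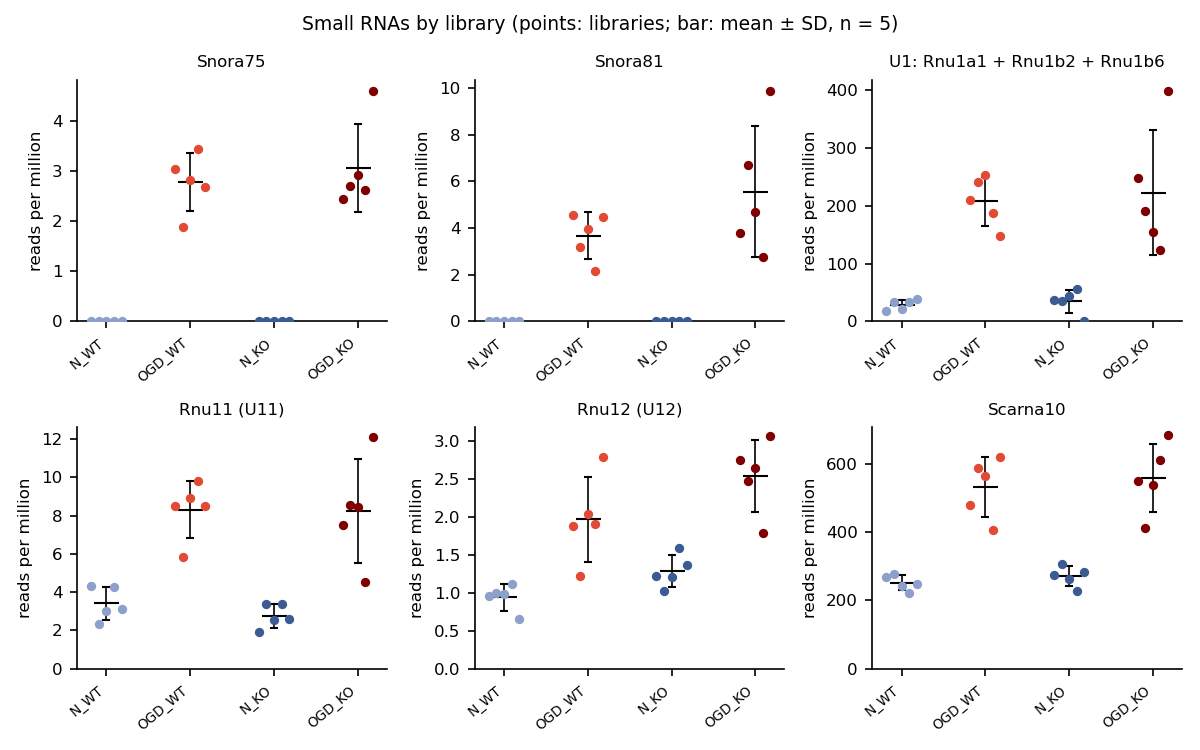
CPM (y axis, from 0) of Snora75, Snora81, the summed U1 copies, Rnu11, Rnu12 and Scarna10 in each library of the 4 groups. Points are libraries and bars mean ± SD (n = 5). Snora75 and Snora81 are at 0 in the 10 N libraries, and the U1 sum is 1.49 in its lowest N_KO library. Rnu1b6, which is not listed for N_WT, counts as 0 in that group.

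The position of the small RNAs allowed each to be set beside its host. Of the 46, 37 lie inside a gene of the same strand: 20 in an intron of every transcript of the host, 13 in an intron that a retained-intron transcript keeps, and 4 over an exon. Ribosomal protein genes held 10 of them and member hosts 7. Among small RNAs listed in all 4 tables, 17 pairs with 15 hosts had both values in WT. For the 8 small RNAs called there, the host was called higher for 6 and not called for 2. In KO, with 16 pairs and 14 hosts, 12 small RNAs were called, and the host was called higher for 10 and not called for 2. No host of these called small RNAs was called lower. Over all genes 21.6% were called higher in WT and 21.0% in KO. Among the uncalled small RNAs of these pairs, the hosts of Snord34, Snord35a, Snord49b, Snord55, Snord82 and Snord99 were also called higher in WT. Those of Snora73b, Snord70 and Snord87 were not. In KO the hosts of the uncalled Snord34, Snord49b and Snord99 were called higher and that of Snord70 was not. A host called higher was thus found beside called and uncalled small RNAs.

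The ratio of a small RNA to its host was compared between OGD and N by two-sided exact permutation tests, adjusted over the 27 pairs in WT and the 23 in KO. This comparison was added after the data were seen. Of the pairs whose small RNA is listed in all 4 tables, the ratio fell for 3 of 17 in WT and for 2 of 16 in KO, and rose for 0 in either, counted at an exact permutation p of 0.00794. That is the minimum for groups of 5 and 5. The adjusted values were 0.0306 in WT and 0.0456 in KO. They also ran over pairs listed in fewer tables, among which Snora81 and Snora75 had the same exact permutation p in both genotypes. Such pairs lower the adjusted values of the others, so these are not read as past 0.05. For Snora81 over Eif4a2, Snora75 over Ncl and Snora73a over Snhg3 no ratio change is given, since the small RNAs were listed only in tables with OGD libraries and the first 2 had no read in normoxia.

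In these pairs the host was called higher and the small RNA did not pass its test. Snord99 was at 3.01, 2.81, 2.94, 4.56 and 3.25 CPM in N_WT and 5.46, 3.38, 4.96, 6.36 and 2.99 in OGD_WT, and its log2 fold change was 0.39 (limma adjusted p 0.109, and 0.0288 with the values as deposited), beside 1.65 for Snhg12. In N_KO it was at 3.15, 3.85, 2.91, 2.96 and 2.61, and in OGD_KO at 3.12, 5.26, 3.67, 2.63 and 3.23, with a change of 0.17 (limma adjusted p 0.471). The ratio fell by 1.28 in WT and 1.73 in KO. Snord99 lies over an annotated exon of Snhg12, so its reads may be shared with the host.

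Snord49b over 2410006H16Rik fell by 1.73 in WT and 1.14 in KO, with log2 fold changes of 1.50 and 1.48 for the host and of -0.13 and 0.32 for the snoRNA. Snord34 over Rpl13a fell by 1.06 in WT. In KO the ratio of Snord34 moved by -0.79 (exact permutation p 0.0317, adjusted 0.0811). Snord15a over Rps3, in contrast, had ratio changes of 0.27 in WT and 0.10 in KO (exact permutation p 0.151 and 0.698).

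**Figure D5:**
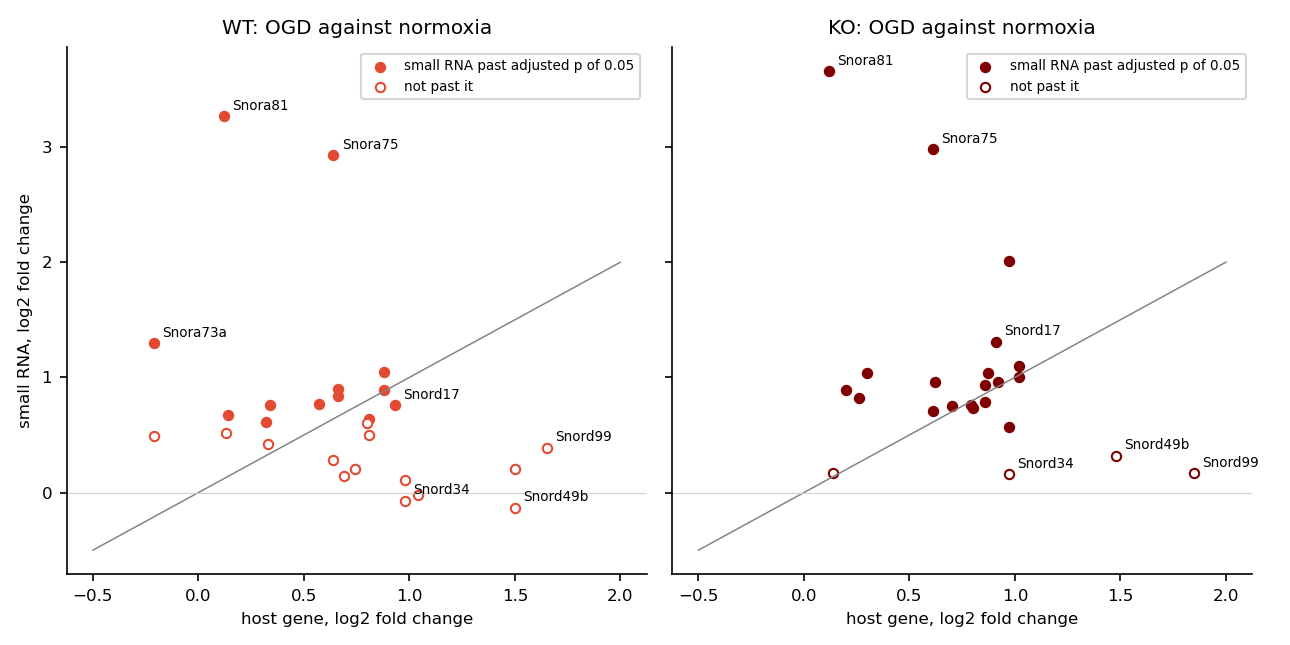
Log2 fold change under OGD of each small RNA (y axis) against that of its host gene (x axis), in WT and KO. Filled points are small RNAs past a limma adjusted p of 0.05, and the diagonal marks equal changes. Snord99 and Snord49b lie below the diagonal. Snora81 and Snora75 lie above it, at fitted values that depend on the prior count because their N libraries are at 0.

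Proteins that bind or make these RNAs were counted by list, beside shares of 21.6% of all genes called higher in WT and 21.0% in KO. Of 21 snoRNP and snoRNA assembly proteins, 5 rose and 1 fell in WT, and 6 rose and 1 fell in KO. Nufip1, an assembly factor of box C/D particles, rose by 0.77 in WT (limma adjusted p 0.000193), Naf1, which loads box H/ACA particles, by 0.74 (limma adjusted p 9.42e-05), and Rpap3 fell by 0.51 (limma adjusted p 0.012). Of 55 measured genes of snRNP proteins and snRNA biogenesis, 10 rose and 6 fell in WT and 8 rose and 6 fell in KO. Ints12, a subunit of the Integrator complex that cleaves snRNA precursors, rose by 1.14 (limma adjusted p 2.64e-06) and Sart3, a recycling factor of U4 and U6, by 0.78 (limma adjusted p 0.000207).

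Of 9 minor spliceosome proteins, 2 rose and 0 fell in each genotype, Snrnp48 by 0.88 (limma adjusted p 0.000157) and Rnpc3, which bridges U11 and U12, by 0.55 (limma adjusted p 0.00516) in WT. Of 14 nonsense-mediated decay factors, 4 rose in WT and 3 in KO and 0 fell, with Upf2 at 0.72 (limma adjusted p 0.00133) and the kinase Smg1 at 0.53 (limma adjusted p 0.0222) in WT. Of 34 genes of ribosome biogenesis and RNA polymerase I, 14 rose and 2 fell in each genotype. Taf1d, a subunit of the polymerase I selectivity factor, rose by 1.25 (limma adjusted p 1.73e-06) and Mybbp1a, a nucleolar protein, by 0.94 (limma adjusted p 5.89e-05) in WT.

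Other short structured RNAs, of which 6 of 12 were listed, also rose, 6 of 6 in each genotype. Rn7sk, the 7SK RNA that holds back transcription elongation, rose by 0.78 in WT and 0.79 in KO (limma adjusted p 0.0025 and 0.0263). Rpph1, the RNA of RNase P, rose by 0.88 and 0.97 (limma adjusted p 0.000161 and 0.000392), Rny1 by 0.88 and 1.09 (limma adjusted p 0.000299 and 0.00048), and Rny3 by 0.68 and 0.89 (limma adjusted p 0.00142 and 0.00171). The signal recognition particle RNAs Rn7s1 and Rn7s2 rose by 1.12 and 1.42 in WT (limma adjusted p 0.000156 and 0.0112) and by 1.26 and 1.47 in KO (limma adjusted p 0.00145 and 0.00349).

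Other measures moved with OGD in these libraries. The mitochondrial ribosomal RNA mt-Rnr2 took 10.1 to 14.0% of reads in N_WT, 13.8 to 24.6% in OGD_WT, 10.1 to 16.4% in N_KO and 18.0 to 32.0% in OGD_KO. Proliferation markers were called higher for 7 of 7 genes in each genotype, with sums of 459 to 598 CPM in N_WT, 855 to 1470 in OGD_WT, 450 to 691 in N_KO and 1010 to 1330 in OGD_KO. Of 8 astrocyte markers listed, 5 were called higher and 1 lower in WT and 4 higher in KO. Their sums were 1110 to 1390 in N_WT, 1810 to 2250 in OGD_WT, 879 to 1570 in N_KO and 1470 to 2310 in OGD_KO. Of 7 oligodendrocyte lineage markers, 1 was called higher and 2 lower in WT and 3 higher in KO, and 0 of 8 microglia markers were listed. The part of RNA composition and of cell types in the changes of the members was not tested.

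The knockout was compared within each condition. In normoxia 0 of 36 members were called by limma between N_KO and N_WT, where 0.0353% of 14152 genes were called. An unadjusted limma p under 0.05 was found for 0 of the 36 and for 1.81% of genes, and an exact permutation p under 0.05 for 1 and for 1.99% of genes. The log2 differences lay between -0.83 (Rnu1a1) and 0.42 (Snhg8), and the half-width of the 95% interval had a median of 0.40. For Rnu1a1 the interval ran from -2.83 to 1.16, because N_KO replicate 5 had no read.

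Under OGD 0 of 57 members were called by limma between OGD_KO and OGD_WT, where 0.0282% of 14185 genes were called. Of the 36 in all 4 tables, an unadjusted limma p under 0.05 was found for 1, Snhg6, and for 1.78% of genes. An exact permutation p under 0.05 was found among the 36 for Snhg6 and Snord17, and for 2.17% of genes. Over all 57 the members under these limits were 6 and 5. The half-width of the 95% interval had a median of 0.46. The 6 by limma were Rnu1b6 (log2 difference 3.28), Snord50b (1.96), Snhg6 (0.41), Snora73a (-0.53), Snord12 (-0.59) and Snord116l12 (-0.64). All but Snhg6 are outside the 36 and may have been listed through the group where they are higher, so the count over the 57 is not set against the share of genes. Rnu1b6 was at 0, 0, 0, 0 and 3.09 CPM in OGD_WT and 4.75, 12.4, 11, 0 and 19.7 in OGD_KO, and Snord50b at 2.47, 0, 0.531, 0 and 0 and 0.743, 4.78, 1.03, 3.47 and 3.23. These groups overlapped, and both RNAs were listed only in the tables with OGD_KO libraries, the group where they were higher. Every 50-base word of both occurs in other genes. Both passed the adjusted limit with the batch label as a covariate, and Snord50b in batches 3.1 to 3.3, but no test is read from them.

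The difference between the OGD responses of KO and WT was tested on the 36 members, taking the N and the OGD library of a number as 1 culture, although the deviations of such pairs correlated at -0.66 to 0.05 in WT and -0.77 to -0.07 in KO. The comparisons within genotype and within condition use the same libraries, so their values are given side by side and not counted as separate support. Of the 36, 0 were called by limma, where 0.0% of 13688 genes were. The smallest unadjusted limma p was 0.0391, for Snord17, whose response was larger in KO by 0.59 (95% interval 0.03 to 1.14), and 1 member was under 0.05, where 0.628% of genes were. With the libraries not paired, 0 members and 0 genes were called, and Snord17 had an interval of 0.11 to 1.07 (unadjusted limma p 0.0186). The differences ran from -0.46 to 0.90 (Rnu1a1, which was at -0.90 without the libraries of KO replicate 5), and the half-width of the 95% interval had a median of 0.64 and a range of 0.42 to 2.69. Intervals of this width held some of the responses and not others. For Snhg12 the interval was -0.33 to 0.72, below its responses of 1.65 in WT and 1.85 in KO. For Scarna10 it was -0.50 to 0.43, below 1.05 and 1.04. For Scarna6 it was -0.15 to 1.02, which held the WT response of 0.61. The 5 members called in KO and not in WT had KO responses of 0.57 to 0.76. Their intervals held both 0 and these responses, so they are not shown to respond differently.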

How the data were processed

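The deposited values are log2 CPM of 20 libraries in 4 tables, 1 per comparison. The labels' protocols name TRIzol, DNase and a stranded total RNA kit, and the submitters' processing notes name mm10. The aligner, annotation and filter are not given in the sources used here. In each gene and group the deposited log2 values had been drawn inwards, the extreme taking a weight of 0.6, as inferred from the values. This was undone, after which at least 99.91% of values were whole reads (within 0.05 reads, genes of up to 500 reads), against 45.27 to 92.77% as deposited. Each table was fitted over all genes with limma 3.58.1 (R 4.3.3, intensity trend, Benjamini-Hochberg, two-sided). Levels use joint scaling over 13688 genes, and host ratios a prior count of 2 reads. Members, lists and tests were chosen with earlier results of these data known. Members were named by class, call, size of change and level, with exceptions stated. N and OGD libraries of a number share a genotype and a batch label, yet their deviations correlated at -0.66 to 0.05 in WT and -0.77 to -0.07 in KO. Names and positions come from GENCODE release 21, and for Snhg16 and Snord94 from RefSeq. Alternatives were the values as deposited, a replicate block, prior counts of 0.5 and 5, other scalings, at least 10 reads, batches 3.1 to 3.3, a batch covariate and leaving out each library.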

Additional observations from a re-analysis of the deposited data

Results flagged for a closer look

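A library was picked out here when the gap to its nearest neighbour took up most of the range of its group of 5. This was so in 8 of 83 groups, and chance picks out about 1 group in 20, which is 4.2.

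Gas5 was at 81.6 CPM in OGD_WT replicate 5, against 101 to 104 in the others, and at 148 in OGD_KO replicate 5, against 82.3 to 95.9. Snhg5 was at 33.9 in OGD_WT replicate 2, against 22.7 to 24.6. Snora75 was at 4.59 in OGD_KO replicate 5, from 27 reads, against 2.45 to 2.93. Rnu1a1 was at 0.0 in N_KO replicate 5, against 31.0 to 53.9. Rnu1b2 was at 0.0 in OGD_WT replicate 2, against 7.21 to 12.3, and at 0.0 in OGD_KO replicate 2, against 7.30 to 24.3. Rnu1b6 was at 3.09 in OGD_WT replicate 5, from 31 reads, against 0.0 in the others. The 3 U1 copies share every 50-base word with other genes, and the part of that in these values was not tested.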

How the results depend on the processing

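Of the 36 members in all 4 tables, 22 were called under OGD in WT (21 to 26 over the alternatives) and 27 in KO (23 to 29). Over all genes 44.3% and 40.9% were called. The replicate block gave 23 and 26. In WT it added Snord55 (limma adjusted p 0.0498), and in KO it lost Snord35a (0.0501). Leaving out a library gave 21 to 24 in WT and 26 to 28 in KO. Between N_KO and N_WT, and for the difference between the responses, each alternative gave 0, the replicate block included. Between OGD_KO and OGD_WT the block gave 0, leaving out a library 0 to 1 (Rnu1b6 without OGD_KO replicate 4) and the values as deposited 1 (Rnu1b6). Batches 3.1 to 3.3 alone gave 1 (Snord50b) and the batch covariate 2 (Rnu1b6 and Snord50b). No test is read from these calls, since both RNAs were listed only in the tables with OGD_KO libraries. The cause of the differences between settings was not tested. Of 1296 values of the 36 for OGD against normoxia, 1249 kept direction and call, 27 lost a call, 20 gained one and 0 reversed. Leaving out 1 library added calls in WT for Snord55 (limma adjusted p 0.0179), Snord82 (0.0261) and Snord99 (0.0270) without OGD_WT replicate 5, for Snord70 (0.0327) without OGD_WT replicate 4 and for Snora73b (0.0215) without N_WT replicate 1. In KO it added Snora73b without OGD_KO replicate 1 (0.0429) or 4 (0.0150) and Snhg14 without N_KO replicate 2 (0.0388), and lost Snord35a without OGD_KO replicate 3, 4 or 5 or N_KO replicate 1 or 3 (0.0635 to 0.0796). Low counts limit Rnu12, Snora73a and the U1 copies. Class medians in KO moved beyond the spread under scaling by total reads, to 0.48 (box C/D), 0.68 (hosts) and 0.85 (snRNAs), and to 1.58 (snRNAs) in batches 3.1 to 3.3.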

Other observations

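Genes annotated as snoRNA, scaRNA or snRNA whose symbols fall outside the name pattern behaved as follows. In WT 48 were measured, 27 were called higher and 1 lower by limma under OGD, and their median log2 fold change was 0.67. In KO 50 were measured, 35 were called higher and 0 lower, and the median was 0.87. Over all genes 21.6% were called higher in WT and 21.0% in KO. The 48 and 50 were not limited to genes listed in all 4 tables, so some may have been listed through the OGD libraries. No test is therefore read from these counts. Many are unnamed copies of the members' families and may share reads with them.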
